A study of Drosophila melanogaster with 60 samples.

Results

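The comparison described here is day against night in abdominal fat tissue of Clk-Jrk flies kept at 25 °C. It takes 12 of the 60 libraries of the study: ZT 2, 6 and 10 formed the day group (6 libraries), and ZT 14, 18 and 22 formed the night group (6 libraries), each time having been sampled in 2 samplings. ZT counts hours from the start of the light phase, and darkness began at ZT 12. The study profiled RNA from fat body of Drosophila melanogaster around the clock in w1118 flies at 25 °C and at 18 °C and in Clk-Jrk flies at 25 °C. The 12 w1118 libraries at 25 °C from the same 6 times served as the comparator.

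Clk-Jrk flies carry the Jrk allele of Clk in a w1118 background, after 7 generations of backcrossing, and the comparator flies were w1118. Both were mated females, about 3 days old at the start, in cohorts spanning about a day. They had been raised on a yeast, cornmeal and molasses food, and spent 5 days on a sucrose and yeast food in cycles of 12 h light and 12 h dark. Fat tissue of 10 flies was dissected together, with the epidermis still attached, after the gut, the ovaries and the Malpighian tubules had been taken out. All dissections were done during the working day, and a pair of incubators with opposite light schedules supplied the day and the night samples. The labels do not say which incubator each sample came from, so incubator, light and darkness, and feeding by time of day cannot be told apart from day and night. Nothing in the labels says that the 2 samplings were separate experiments, so p-values measure the spread between these samples. The tests of day against night took the different times within day and within night as replicates. That spread therefore includes differences among times.

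In the fly clock, the transcription factors Clock (Clk) and Cycle (cyc) switch on period (per), timeless (tim), vrille (vri) and PAR-domain protein 1 (Pdp1). The Period and Timeless proteins return to the nucleus and block Clock and Cycle, which makes the transcripts of these genes rise and fall each day. Jrk is a dominant nonsense allele whose shortened Clock protein lacks much of the region that activates transcription, and flies with it lose behavioural rhythms. The fat body combines functions of the vertebrate liver and adipose tissue: it stores fat and glycogen, secretes proteins into the blood and makes antimicrobial peptides. In Clk-Jrk flies kept in light and dark cycles, differences between day and night can still follow light, feeding or activity.

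Estimated counts per library summed to between 10667764 and 28822277 in the Clk-Jrk flies, with medians of 17026352 by day and 13792618 by night. The fat body markers, among them the yolk protein genes, summed to between 117297 and 173685 TPM (transcript abundance, scaled to the same sum in each library), and the neuron markers to between 1.85 and 5.03 TPM. RNA of neighbouring organs varied widely. The 24 ovary markers summed to between 93.2 and 2512 TPM by day and between 345 and 3150 TPM by night. The 29 gut markers summed to between 1.11 and 1157 TPM by day and between 2.84 and 303 TPM by night, and 1 of them, Jon66Cii, was at 0 in all 12 libraries. Mitochondrially encoded RNA made up 0.396% of the counts in the ZT 22 library of sampling 2 and between 1.33% and 5.20% in the others. In bulk tissue, fewer cells of a type and less RNA per cell cannot be told apart.

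No gene passed the test between day and night in Clk-Jrk flies. Of 8709 genes tested with edgeR's quasi-likelihood test and Benjamini-Hochberg adjustment, 0 (0%) had an adjusted p under 0.05, and the smallest adjusted p was 0.623. At an unadjusted p under 0.05 there were 291 genes (3.34%), of which 66 were higher by day (0.758% of the genes tested) and 225 were lower by day (2.58%). Some 435 genes would be under 0.05 if every gene lacked a difference. DESeq2 on the same libraries called 26 genes, 2 higher and 24 lower by day, and limma-trend on log2(TPM + 1) called 0. The median gene differed by 0.10 on the log2 scale in either direction, or 1.07-fold. A 95% confidence interval reached a median of 0.35 (1.27-fold) to each side of the estimate, and it lay wholly within a 2-fold difference for 7770 genes, 89.2% of those tested. Differences of more than 2-fold were thus outside the interval of most single genes. Differences smaller than the reach of the interval, 1.27-fold at the median, were not resolved.

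**Figure D1:**
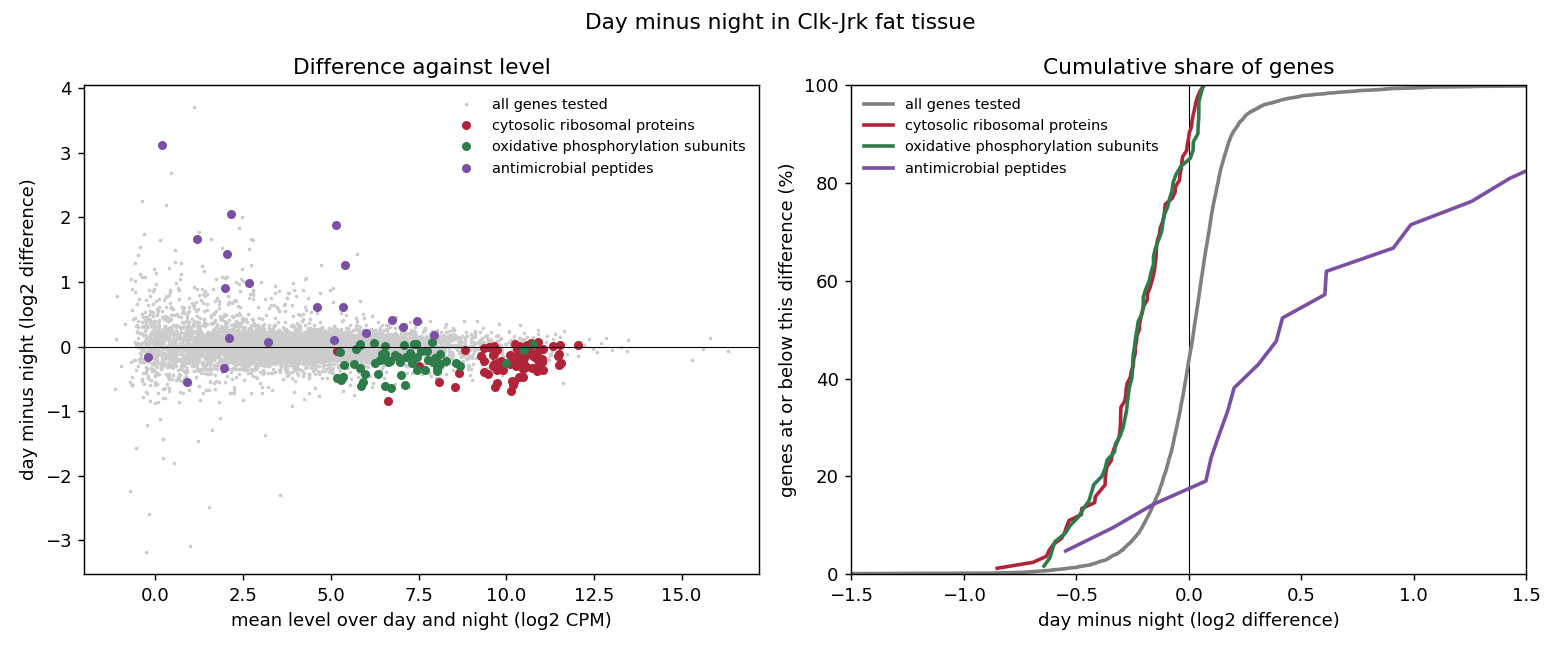
Left: day minus night difference in Clk-Jrk fat tissue (log2, edgeR) against the mean level (log2 CPM) for each of the 8709 genes tested, with cytosolic ribosomal protein genes in red, oxidative phosphorylation subunits in green and antimicrobial peptides in purple. Right: the cumulative share of genes at each difference for the same groups; the red and green curves are displaced to the left of all genes, with medians of -0.22 and -0.23 against 0.02.

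The clock genes were described next, since in wild type they are the genes with the best known daily rhythm. None of the 15 core clock genes tested passed, and 2 had an unadjusted p under 0.05 in Clk-Jrk, per and jet, both lower by day; the share over all genes was 2.58% in that direction. The list's median difference was 0.06, against 0.02 over all genes. In w1118 the same 15 genes had a median of 0.05, with 1 gene higher and 4 lower by day at an unadjusted p under 0.05. The shares over all genes in w1118 were 0.911% higher and 2.44% lower by day.

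The level of tim, which encodes the partner of Period that light destroys, was 2.55, 4.25 and 4.57 log2 CPM (counts scaled to library size; lowest, median and highest of 6 libraries) by day and 4.02, 4.25 and 4.77 by night in Clk-Jrk. These ranges overlapped, and 2 day libraries of sampling 1, at ZT 6 and ZT 10, were below every other library. In w1118 tim ran at 5.54, 6.71 and 8.29 by day and 8.22, 8.69 and 9.21 by night, so that its highest level in Clk-Jrk was below its lowest in w1118. The day minus night difference of tim was -0.35 ± 0.29 (log2 ± SE, 95% interval -0.98 to 0.28, unadjusted p = 0.252, edgeR) in Clk-Jrk and -1.45 ± 0.49 (unadjusted p = 0.0123) in w1118. The samplings did not share a sign in Clk-Jrk, at -1.02 in sampling 1 and 0.30 in sampling 2. The genotypes' difference for tim, 1.13 ± 0.60, had an unadjusted p of 0.0751.

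For vri, which encodes a repressor of Clk, the levels in Clk-Jrk were 2.97, 3.56 and 3.95 log2 CPM by day and 2.69, 3.46 and 4.10 by night. Both groups covered nearly the same range, and the difference was 0.01 ± 0.22 (95% interval -0.46 to 0.49, unadjusted p = 0.947). In w1118, vri was lower by day by -1.05 ± 0.39 on the log2 scale (unadjusted p = 0.0193), and the genotypes' difference was 1.08 ± 0.47 (unadjusted p = 0.0318). Pdp1, an activator of Clk, ran at 4.45, 5.28 and 5.61 by day and 4.17, 5.04 and 6.39 by night in Clk-Jrk. Its difference of -0.06 ± 0.33 came from -0.68 in sampling 1 and 0.52 in sampling 2, against -0.63 (unadjusted p = 0.0302) in w1118.

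Among the 15 genes, per had the smallest p in Clk-Jrk. Its levels were 2.62, 2.99 and 3.10 log2 CPM by day and 2.72, 3.45 and 3.63 by night, so that 4 of the 6 night libraries were above every day library. The difference was -0.39 ± 0.17 (95% interval -0.77 to -0.01, unadjusted p = 0.0429), with -0.50 and -0.33 in the samplings. In w1118 per was lower by day by -0.67 on the log2 scale (unadjusted p = 0.0325), and the genotypes' difference, 0.30 ± 0.34, had an unadjusted p of 0.384. The second gene, jet, encodes an F-box protein of the light response, and it differed by -0.21 ± 0.09 (unadjusted p = 0.0494).

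Clk itself ran at 3.34, 3.84 and 4.29 log2 CPM by day and 2.59, 3.49 and 4.43 by night in Clk-Jrk, and the groups overlapped. Its difference was 0.25 ± 0.27 (95% interval -0.34 to 0.85, unadjusted p = 0.372), against 0.40 in w1118. Since Jrk changes a codon and not the promoter, the level of Clk RNA does not check the label. The blue-light receptor gene cry stood at 7.61, 8.03 and 8.22 by day and 7.71, 8.00 and 8.43 by night in Clk-Jrk. The lowest Clk-Jrk library was just under the highest w1118 library, at 7.77. The difference of cry was -0.04 ± 0.14 in Clk-Jrk and 0.50 ± 0.16 (unadjusted p = 0.0096) in w1118, and the genotypes' difference was -0.52 ± 0.22 (unadjusted p = 0.0291). For cwo, a repressor that competes at Clock's target sites, the values were 0.11 ± 0.22 and -0.25. The clock's kinase and degradation genes CkIIalpha, CkIIbeta, dco, nmo, sgg and slmb, and cyc, had differences between -0.03 and 0.17, each with an unadjusted p over 0.2.

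**Figure D2:**
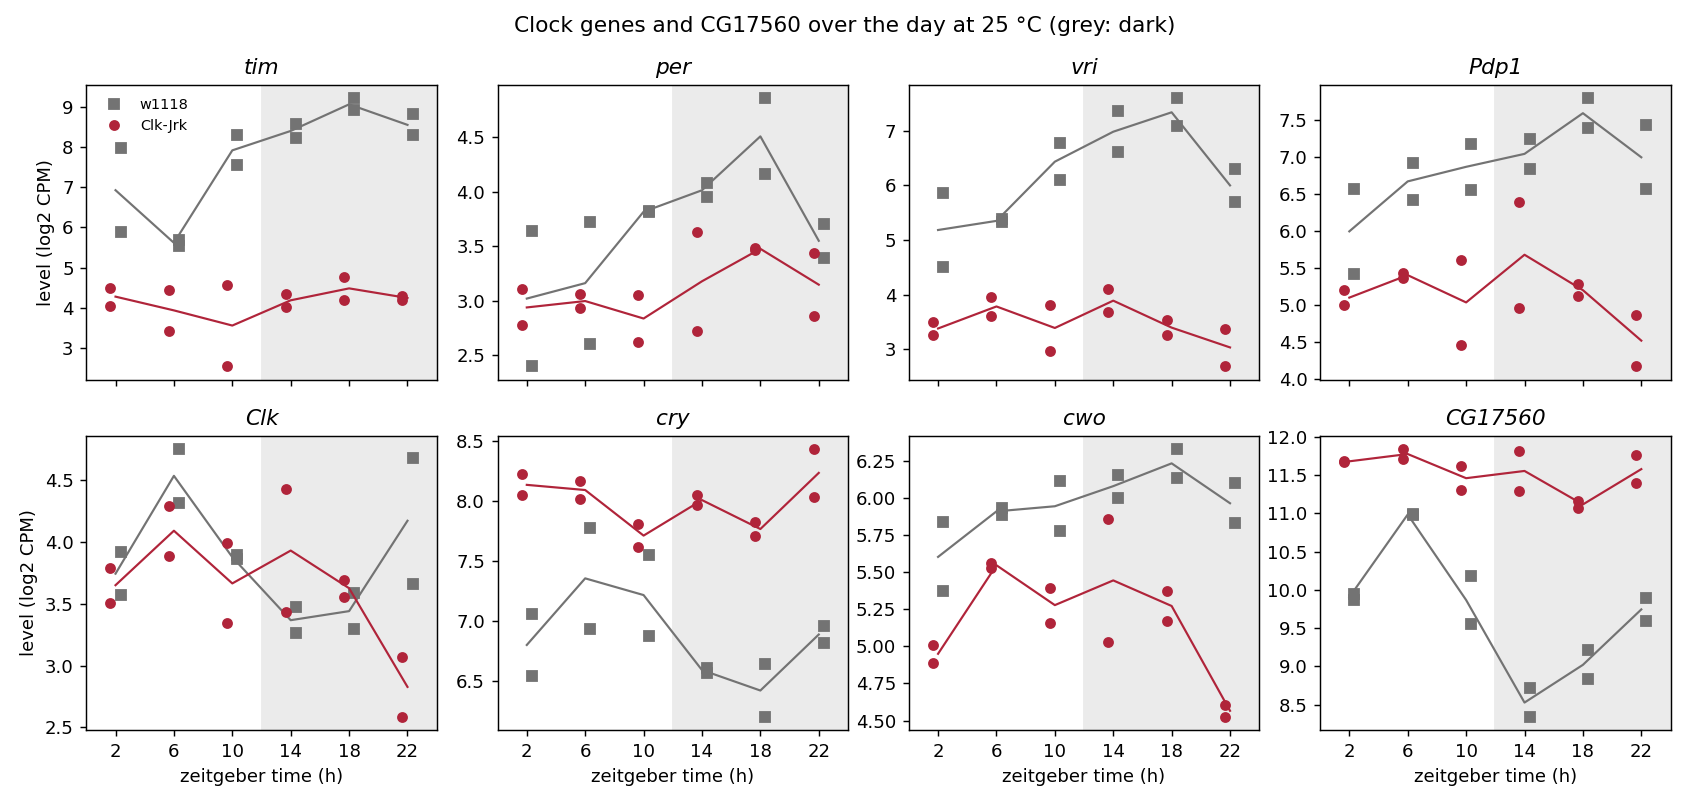
Levels (log2 CPM) of tim, per, vri, Pdp1, Clk, cry, cwo and CG17560 in each library against ZT in hours, with w1118 at 25 °C as grey squares, Clk-Jrk as red circles, lines through the means of the 2 samplings and darkness shaded. The red points of tim stay between 2.55 and 4.77 at all 6 times, under every grey point.

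CG17560, a predicted fatty acyl-CoA reductase, is drawn with the clock genes because it had the smallest p of its list in w1118. In Clk-Jrk it ran at 11.30, 11.68 and 11.84 log2 CPM by day and 11.07, 11.34 and 11.81 by night. Every one of these levels was above those of w1118, whose medians were 10.06 by day and 9.02 by night. The difference was 0.19 ± 0.14 (unadjusted p = 0.188) in Clk-Jrk and 1.17 ± 0.32 (unadjusted p = 0.0037) in w1118, and the genotypes' difference was -0.95 ± 0.37 (unadjusted p = 0.0174). The w1118 values by which CG17560 was picked enter both its w1118 difference and the genotypes' difference, so neither p-value adds support.

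Of the 8709 genes, 6 (0.0689%) had all 6 day libraries above all 6 night libraries, and 30 (0.344%) had all day libraries below all night libraries, in log2 CPM scaled over the 12 Clk-Jrk libraries. With the scaling over 24 libraries that the levels in this text use, 10 genes were above without overlap, 5 of them shared, and 26 were below, all 26 shared. CG10469 and CG11050 were without overlap under the second scaling only. The 6 were CG31904, CG11034, CG5676, Cdc7, CG30394 and CG2818. The larger group held many genes for ribosomal proteins and for the respiratory chain. None of the named genes below that entered the edgeR test passed it with Benjamini-Hochberg adjustment, and those with the smallest p shared an adjusted p of 0.623. CG42704 and CG42705, among others, did not enter it, because the filter on low counts left them out.

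CG10469 had the smallest p of all. It stood at 5.82, 12.5 and 17.9 TPM by day and 3.81, 5.21 and 5.94 TPM by night, so that 5 of 6 day libraries were above every night library and the ZT 6 library of sampling 2 was the exception. The difference was 1.27 ± 0.23 (95% interval 0.77 to 1.77, unadjusted p = 0.000136, adjusted p = 0.623), with 1.40 and 1.09 in the samplings. In w1118 CG10469 ran at 6.15, 15.2 and 32.1 TPM by day and 5.62, 13.4 and 80.0 TPM by night, a spread that covered both Clk-Jrk groups. The genotypes' difference for CG10469 was 1.86 ± 0.52 (unadjusted p = 0.00191). Without the ZT 6 library of sampling 2, CG10469 passed, at 1.41 with an adjusted p of 0.0156 in edgeR's quasi-likelihood test. That library held its lowest day level, so leaving it out raises the difference, and this pass adds no support. Of the 12 fits with 1 library left out, 11 had no call.

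CG43074 also had a small p with a large difference, 3.71 (95% interval 1.52 to 5.90, unadjusted p = 0.00317), which 3 day libraries made. It was at 31.8 TPM at ZT 2 and 50.5 TPM at ZT 6 in sampling 1 and at 72.4 TPM at ZT 10 in sampling 2. The other 9 libraries, of which 3 were taken by day, held between 1.21 and 3.02 TPM. CG31904 differed by 0.93 ± 0.25 (0.609, 0.887 and 1.16 TPM by day, 0.181, 0.464 and 0.713 TPM by night), and CG11034 by 0.44 ± 0.12. CG11050 ran at 36.4, 45.3 and 54.7 TPM by day and 28.9, 35.9 and 41.7 TPM by night, a difference of 0.28 ± 0.07 (unadjusted p = 0.00278). In w1118 its sign was the opposite, -0.24, and its genotype difference of 0.55 ± 0.12 had the smallest p of that test (unadjusted p = 0.000118).

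A group of genes was detected at high levels by day and at or near 0 by night, apart from a single library. CG42704 was at 126 to 256 TPM in 5 of the 6 day libraries, at 1.21 TPM in the ZT 6 library of sampling 2 and at 0.262 to 1.92 TPM in the 6 night libraries. CG42705 was at 36.9 to 67.7 TPM in the same 5 libraries, at 0 in the ZT 6 library of sampling 2 and at 0 to 0.342 TPM by night. These genes lie side by side on the X chromosome on the same strand, CG42704 at 7412668 to 7413296 and CG42705 at 7413869 to 7414662 (BDGP6.54 annotation). CG42704 and CG42705 were above the low count floor in fewer than 6 Clk-Jrk libraries, and the filter left them out of the test within Clk-Jrk.

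Over the 12 libraries, 4 of 7957 genes with a highest level of at least 3 TPM followed CG42704 with a correlation of 0.95 or more on log2(TPM + 0.1): CG42705, CG42780, CG10154 and CG43255. This search was added after the values of CG42704 were seen, and a correlation over on and off states is a description only. The last 3 were at 2.74 to 7.84 TPM in the 5 day libraries and at 0 in the other 7. With no filter on low counts, edgeR called CG42704 and CG42705 (adjusted p = 0.0406 for each). Without the ZT 6 library of sampling 2, the day library in which they were not detected at high levels, it called 7 genes, all higher by day. Of the 7, CG42704, CG42705, CG10154, CG42780, CG18258 and CG13728 passed the filter only through the day libraries in which they were high, so these calls restate the pattern above and add no support to it. The other was CG10469, whose lowest day level was in the library left out, so its call adds no support either.

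In w1118, CG42704 was high at some times of both day and night. It ranged from 0 to 1792 TPM over the 24 w1118 libraries at 25 °C. In sampling 1 it ran from 7.27 to 1792 TPM and exceeded 10 TPM in 11 of 12 libraries, and in sampling 2 it ran from 0 to 269 TPM and exceeded 10 TPM in 4 of 12. Its medians in sampling 1 were 582 TPM by day and 616 TPM by night (5 libraries each, from ZT 2 to 10 and from ZT 14 to 22), and in sampling 2 they were 3.49 and 0.332 TPM. CG42705, CG42780, CG10154 and CG43255 also had medians above 8 TPM by day and by night in sampling 1, and medians of 0 in sampling 2. The genotypes' difference for CG42704 was 8.01 ± 1.94 (unadjusted p = 0.000482, adjusted p = 0.808 in edgeR's quasi-likelihood test). The level of CG42704 in w1118 moved with the sampling number, and the part of incubator or sampling in the Clk-Jrk pattern was not tested.

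**Figure D3:**
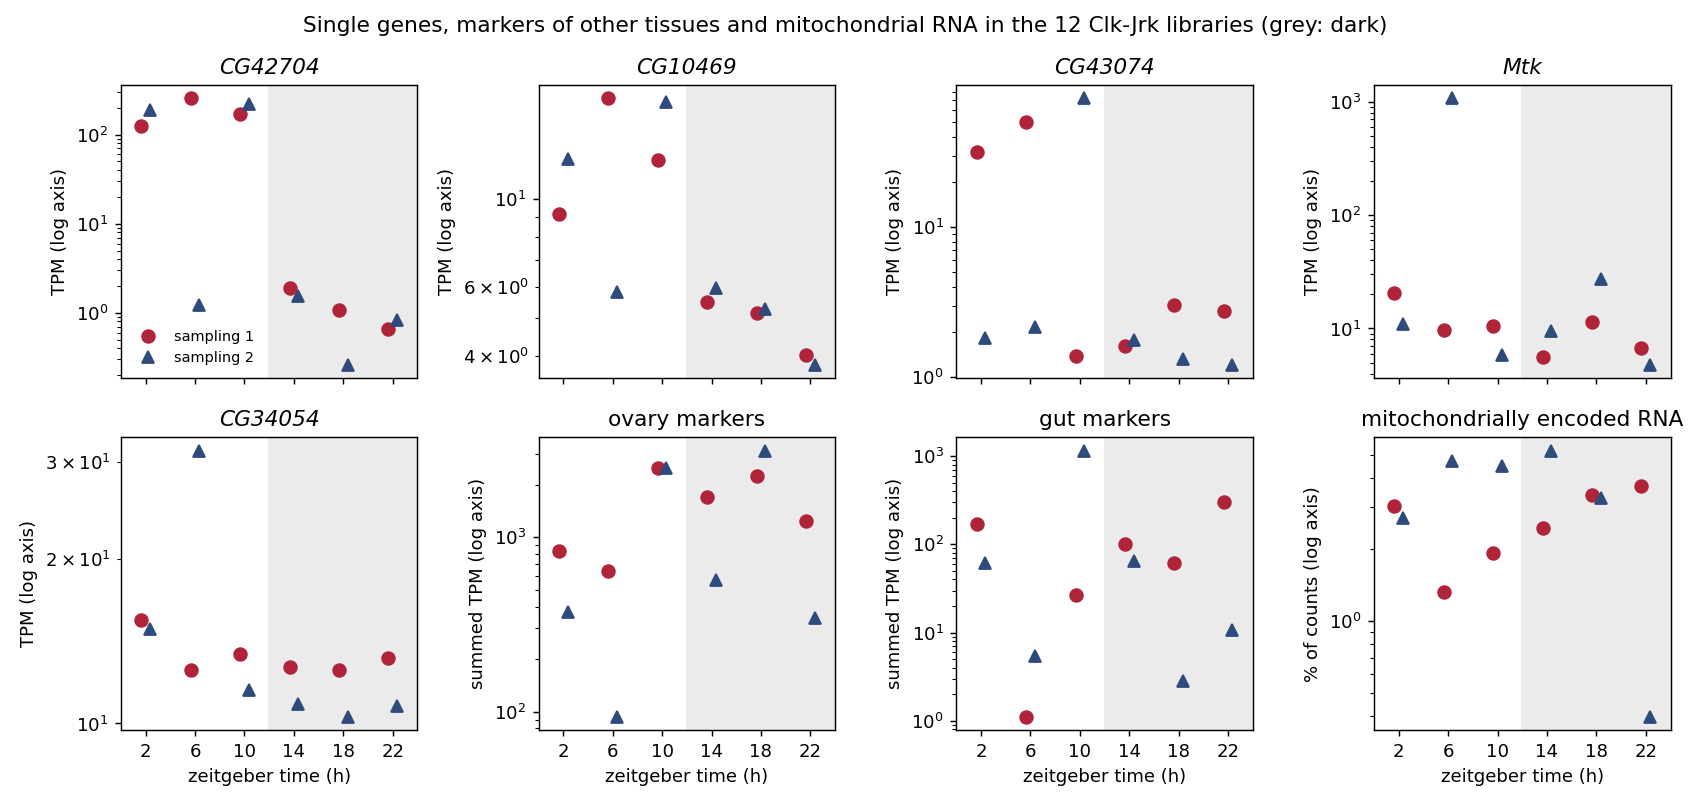
Levels of CG42704, CG10469, CG43074, Mtk and CG34054 (TPM), summed ovary and gut markers (TPM) and mitochondrially encoded RNA (percent of counts) in each of the 12 Clk-Jrk libraries against ZT in hours, on log axes, with sampling 1 as red circles and sampling 2 as blue triangles. At ZT 6 the sampling 2 library has 1.21 TPM of CG42704 and 1074 TPM of Mtk, while the other day libraries have at least 126 TPM and at most 20.5 TPM.

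Genes of the respiratory chain were mostly lower by day in Clk-Jrk. Of 60 nuclear genes for oxidative phosphorylation subunits tested, 50 had a difference below 0, against 43.6% of all genes, 20 had an unadjusted p under 0.05 with lower levels by day, against 2.58% of all genes, and 0 were higher by day at that level. Their median difference was -0.23, against 0.02 over all genes, with -0.09 in sampling 1 and -0.41 in sampling 2. For 5 of the 60 the day and night libraries did not overlap, against 0.344% of all genes. None passed the edgeR test, and DESeq2 called 5 of the 60, against 26 of all 8709 genes.

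ND-B14.5A, an accessory subunit of complex I that the pattern of the list missed, had the smallest p of all genes lower by day. It stood at 38.4, 62.7 and 67.5 TPM by day and 83.9, 95.9 and 116 TPM by night, with no overlap. The difference was -0.76 ± 0.14 (95% interval -1.06 to -0.46, unadjusted p = 0.000152, adjusted p = 0.623 in edgeR's quasi-likelihood test). In w1118 it was 0.07, and the genotypes' difference was -0.80 ± 0.19 (unadjusted p = 0.00046).

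RFeSP, the Rieske iron-sulfur subunit of complex III, was at 76.0, 121 and 137 TPM by day and 149, 188 and 212 TPM by night. All 6 day libraries were below the night libraries, and the difference was -0.64 ± 0.13 (unadjusted p = 0.000319). COX8, a small subunit of complex IV, was at 180, 214 and 246 TPM by day and 272, 317 and 385 TPM by night, again without overlap, with a difference of -0.62 ± 0.12 (unadjusted p = 0.000339). In w1118 the differences were 0.02 for RFeSP and -0.02 for COX8. Shawn, a carrier of the mitochondrial inner membrane, differed by -0.39 ± 0.08 (unadjusted p = 0.000503).

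Cytosolic ribosomal protein genes had differences of like size and direction. Of 82 tested, 73 had a difference below 0, against 43.6% of all genes. At an unadjusted p under 0.05, 27 were lower by day, against 2.58% of all genes, and 0 were higher. For 7 the groups did not overlap, against 0.344% of all genes. The median was -0.22, with -0.08 in sampling 1 and -0.39 in sampling 2. None passed in edgeR, and DESeq2 called 8 of the 82, against 26 of all 8709 genes. Near-identical copies such as RpL34a and RpL34b share sequence, so the split of their counts is uncertain.

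RpL35A was at 522, 746 and 960 TPM by day and 906, 1140 and 1217 TPM by night; on the TPM scale the highest day library exceeded the lowest night library, and on the log2 CPM scale the groups did not overlap. Its difference was -0.62 ± 0.13 (unadjusted p = 0.000423), and that of RpL13A was -0.63 ± 0.13 (844, 1361 and 1798 TPM by day, 1533, 2005 and 2156 TPM by night). In w1118 these genes differed by -0.01 and 0.01. Over the whole list 72 of 82 w1118 differences were also below 0, but with a median of -0.06 and 0 at an unadjusted p under 0.05, and 12 of the 82 had an unadjusted p under 0.05 for the genotypes' difference, all in the direction of Clk-Jrk lower by day, against 1.69% of all genes.

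Single libraries carried much of both medians. Centred on the mean of the 12 libraries, the ribosomal protein genes stood at 0.37 and 0.42 (log2) at ZT 22 in the 2 samplings, while the other 4 night libraries lay between -0.18 and 0.11 and the day libraries between -0.43 and 0.18. The oxidative phosphorylation genes stood at 0.56 in the ZT 22 library of sampling 2, the library with 0.396% mitochondrially encoded RNA, and between -0.20 and 0.19 in the other night libraries. Without that library the medians were -0.11 for ribosomal proteins and -0.12 for oxidative phosphorylation. At an unadjusted p under 0.05, 21 of 82 and 16 of 60 were then lower by day, against 1.69% of all genes. Without both ZT 22 libraries the medians were -0.04 and -0.08. The counts lower by day were then 14 of 82 and 14 of 60, against 2.06% of all genes, and 0 were higher in either list. With the summed ovary markers as a covariate the medians were -0.28 and -0.27. The part of RNA quality in these differences was not tested.

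Genes lower by day at an unadjusted p under 0.05 were more frequent among short transcripts. With genes split into 4 groups of equal size by their longest annotated transcript, 6.12% of the group with the shortest transcripts (198 to 1297 bases) were lower by day at an unadjusted p under 0.05, and the next groups had 2.99%, 1.01% and 0.230%. Leaving out ribosomal proteins, mitochondrial ribosomal proteins and oxidative phosphorylation subunits, the group with the shortest transcripts had 4.57% and the one with the longest 0.184%. The part of transcript length in the list medians was not tested.

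**Figure D4:**
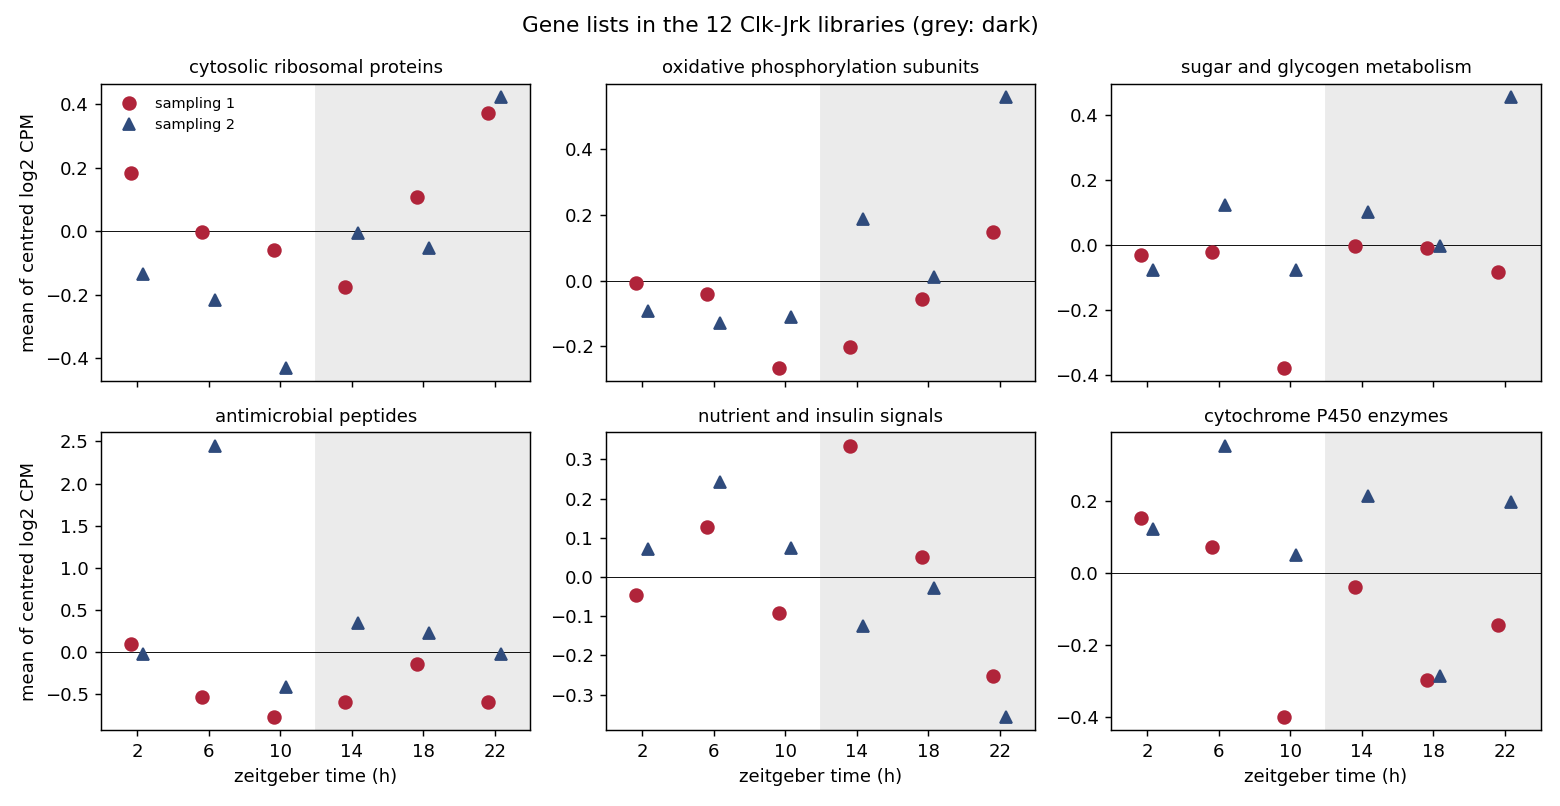
Mean level of 6 gene lists in each Clk-Jrk library (log2 CPM, each gene centred on its mean over the 12 libraries) against ZT in hours, with sampling 1 as red circles and sampling 2 as blue triangles. Both ZT 22 libraries are the highest for cytosolic ribosomal proteins, at 0.37 and 0.42, and the ZT 6 library of sampling 2 stands at 2.45 for antimicrobial peptides.

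Genes of sugar and glycogen metabolism were also mostly lower by day. Of 27 genes tested, 23 had a difference below 0, against 43.6% of all genes, and the median was -0.15, with -0.16 and -0.24 in the samplings and 0.09 in w1118. At an unadjusted p under 0.05, 7 were lower by day, against 2.58% of all genes: Tpi, Eno, Gapdh1, Pgk, PyK, Pgd and Zw, most of them enzymes of glycolysis. The list's mean centred level was 0.46 in the ZT 22 library of sampling 2, the one low in mitochondrially encoded RNA, and between -0.08 and 0.10 in the other night libraries. Without that library 5 of the 27 were lower by day at that level, and the median was -0.12. Tpi, triosephosphate isomerase, was at 179, 227 and 242 TPM by day and 231, 297 and 360 TPM by night. Its log2 CPM did not overlap, and the difference was -0.49 ± 0.14 (unadjusted p = 0.00416) against 0.28 in w1118, with a genotypes' difference of -0.74 ± 0.22 (unadjusted p = 0.00288). Eno, enolase, differed by -0.35 ± 0.11 (unadjusted p = 0.00673). Zw, which opens the pentose phosphate pathway, had a p under 0.05 in both genotypes with opposite signs, -0.28 in Clk-Jrk and 0.44 in w1118. Rpi, ribose-5-phosphate isomerase of the same pathway, was at 51.1, 73.0 and 84.6 TPM by day and 86.1, 98.7 and 127 TPM by night without overlap, and its genotypes' difference was -0.85 ± 0.22 (unadjusted p = 0.00107).

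The antimicrobial peptide genes had a median difference of 0.42, and 3 of the 21 tested were below 0, against 43.6% of all genes. Drosomycin (Drs) was at 35.3, 251 and 3824 TPM by day and 27.4, 98.3 and 743 TPM by night, overlapping widely, with a difference of 1.88 ± 0.80 (unadjusted p = 0.0371). Metchnikowin (Mtk) was at 1074 TPM in the ZT 6 library of sampling 2 and at 4.79 to 27.5 TPM in the other 11. That library also held 19354 TPM of antimicrobial peptide RNA in all, against 4361 to 6798 TPM in the others, and 4899 TPM of spermatheca markers. Without it the list's median was -0.02. The peptides' median in w1118 was -0.36, and 6 of 22 had an unadjusted p under 0.05 for the genotypes' difference, all in the direction of Clk-Jrk higher by day, against 3.58% of all genes. The ZT 6 library of sampling 2 was part of this fit too. How many peptides reach that level without it was not tested. Among 27 genes of immune recognition and signalling, 22 were above 0 and 0 reached an unadjusted p under 0.05, with medians of -0.03 in sampling 1 and 0.12 in sampling 2. Of these, PGRP-SB1 was at 316 TPM in that same library.

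Of the nutrient and insulin signals, 4 of 26 were below 0, against 43.6% of all genes, with a median of 0.07. The samplings did not share a sign, with medians of -0.05 in sampling 1 and 0.23 in sampling 2. At an unadjusted p under 0.05, 1 of the 26 was higher by day, against 0.758% of all genes. This gene, daw, an activin-type ligand, was at 24.9, 27.3 and 38.5 TPM by day and 16.6, 18.9 and 31.4 TPM by night (0.50 ± 0.16, unadjusted p = 0.0104). The ZT 14 library of sampling 1 was the night library that reached the day range. Thor, the translation repressor downstream of insulin signalling, had a difference of 0.23 ± 0.17 (unadjusted p = 0.213). Fatty acid synthesis and fat storage held 26 genes with a median of 0.05 and 0 at an unadjusted p under 0.05; its smallest p belonged to Lsd-2, a perilipin of the lipid droplet (0.29 ± 0.16, unadjusted p = 0.101). In lipolysis and fatty acid oxidation, 2 of 21 were lower by day at an unadjusted p under 0.05, against 2.58% of all genes: Echs1, the mitochondrial enoyl-CoA hydratase (-0.43 ± 0.11, unadjusted p = 0.0023), and scu (-0.41 ± 0.14).

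In several other lists the counts lower by day at an unadjusted p under 0.05 were small, and they are to be read against the 2.58% of all genes. The mitochondrial ribosomal proteins had 58 of 75 below 0, 5 at an unadjusted p under 0.05 and a median of -0.05, with 0.04 in sampling 1 and -0.23 in sampling 2. Ribosome biogenesis had 20 of 26 below 0, with medians of 0.06 in sampling 1 and -0.19 in sampling 2. It had 1 at that level, Fib, the nucleolar methyltransferase fibrillarin (-0.59 ± 0.25). Amino acid catabolism had 3 of 25, among them Shmt (-0.38 ± 0.12), antioxidant defence 2 of 20, Sod1 (-0.39 ± 0.13) and Trxr1 (-0.29 ± 0.13), and the proteasome 1 of 32, Prosbeta1 (-0.24 ± 0.10). Hsp60A, the mitochondrial chaperonin, was the 1 of 16 heat shock and chaperone genes (-0.33 ± 0.13), and Tsf1, a secreted iron carrier, the 1 of 16 secreted proteins (-0.56 ± 0.24).

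Genes known to respond to light or activity were looked at next. Of 9 light-linked DNA repair genes, 0 had an unadjusted p under 0.05, and the photolyase phr6-4 stood at 0.327, 0.706 and 3.02 TPM by day and 0.231, 1.43 and 2.18 TPM by night (-0.49 ± 0.49, unadjusted p = 0.344). None of 8 activity-regulated transcription factors and none of 4 Turandot stress peptides reached that level. Among 65 cytochrome P450 genes, 14 were below 0, against 43.6% of all genes, and 2 were higher by day at an unadjusted p under 0.05, against 0.758% of all genes, Cyp304a1 (0.59 ± 0.22) and Cyp6g2 (0.88 ± 0.39), both with a difference near 0 in sampling 2. The UDP-glycosyltransferases, glutathione S-transferases, hormone receptors, endoplasmic reticulum folding genes, autophagy genes, cuticle proteins, acyl reductases and elongases, and takeout and juvenile hormone genes had 0 at that level. Of 11 mitochondrially encoded RNAs, 10 were below 0 and 0 reached it. Their median of -0.15 came from samplings of opposite sign, -0.72 in sampling 1 and 0.39 in sampling 2.

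**Figure D5:**
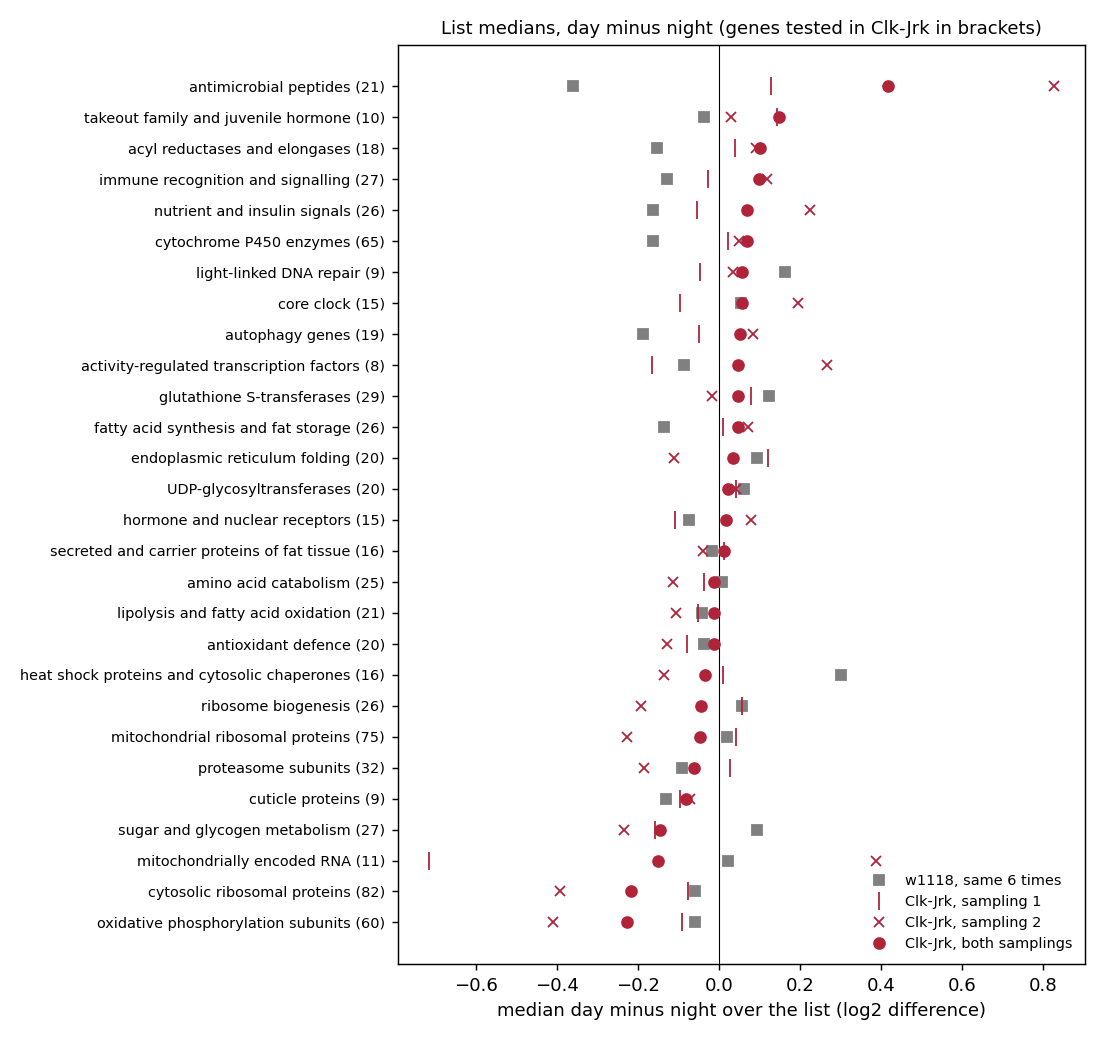
Median day minus night difference (log2) of each gene list with at least 5 genes tested, in Clk-Jrk with both samplings, in each sampling alone and in w1118 at 25 °C. Cytosolic ribosomal proteins sit at -0.22 in Clk-Jrk, -0.08 and -0.39 in the samplings and -0.06 in w1118.

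Markers of other organs varied widely within both groups. Their counts below or above 0 are to be read against the 43.6% of all genes below 0. Of 16 Malpighian tubule markers, 15 were above 0, 0 had an unadjusted p under 0.05 and the median was 0.44, and their sum was 109 to 191 TPM by day and 48.1 to 208 TPM by night. The 2 ZT 14 libraries, at 208 and 140 TPM, were in the range of the day libraries, and the 4 libraries of ZT 18 and ZT 22 were the lowest 4. Of 23 ovary markers, 15 were below 0. At an unadjusted p under 0.05, 1 of the 23 was lower by day, against 2.58% of all genes. The median over all 23 was -0.40, with 0.08 in sampling 1 and -0.77 in sampling 2. Of 10 gut markers, 8 were above 0 and 0 had an unadjusted p under 0.05, and their median of 0.77 came from -1.24 and 2.91 in the samplings. Of 8 photoreceptor markers, 7 were below 0 and 0 had an unadjusted p under 0.05, with a median of -0.57. Without ZT 14, edgeR called 1 gene, Alp4, an alkaline phosphatase known from the tubule (2.40, adjusted p = 0.0202), and 710 had an unadjusted p under 0.05. The part of RNA from these organs in the differences above was not tested.

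Day and night explained little of the spread among the Clk-Jrk libraries. Each share given here is a median over genes taken on its own, so the shares do not add up to the whole. The day and night term (1 degree of freedom) took 3.40% of the sum of squares, and the times within day and within night (4) took 49.2%. The sampling (1) took 8.03% and the remainder (5) took 29.7%. In w1118 the corresponding shares were 6.09%, 33.0%, 15.5% and 32.8%. With the 6 times as a factor, edgeR called 2 genes (0.023%), dec and Vm32E (adjusted p = 0.0454 for each), both of the eggshell, and 1544 genes (17.7%) had an unadjusted p under 0.05. A cosine of 24 h gave 0 calls, with 1402 genes (16.1%) at an unadjusted p under 0.05 and a smallest adjusted p of 0.299 in edgeR's quasi-likelihood test. The first principal component, 39.0% of the variance, did not separate day from night: it was highest in a ZT 10 library (31.6) and lowest in a ZT 6 library (-29.2), and dec was among its leading genes.

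The w1118 flies gave no more calls than Clk-Jrk at the same 6 times. Of 8893 genes tested, 0 (0%) passed in edgeR, with a smallest adjusted p of 0.739, and 298 (3.35%) had an unadjusted p under 0.05, 81 higher (0.911%) and 217 lower by day (2.44%); DESeq2 called 0. For the genotypes' difference in day against night, 0 of 9166 genes passed in edgeR (smallest adjusted p = 0.808), and 483 (5.27%) had an unadjusted p under 0.05. DESeq2 called 3, CG11050 (log2 difference 0.52), CG31681 (23.6, against 10.3 in edgeR) and CG42704 (8.01). The 2 estimates for CG31681 lie too far apart to give a size, and its unadjusted p in edgeR's quasi-likelihood test was 0.00983. CG42704 is the gene at high or very low levels by library described above. Of the 483, 328 (3.58% of the genes tested) were in the direction of Clk-Jrk higher by day and 155 (1.69%) in the other. CG34054, 1 of the 10 genes with the smallest p here, differed by 0.45 ± 0.28 in Clk-Jrk and -0.94 in w1118 (genotypes' difference 1.43 ± 0.40, unadjusted p = 0.00177), and its highest Clk-Jrk level, 31.5 TPM, was in the ZT 6 library of sampling 2. The riboflavin transporter Rift differed by 0.14 ± 0.08 and -0.25 (genotypes' difference 0.41 ± 0.10).

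Across 8623 genes tested in both genotypes, the differences of Clk-Jrk and w1118 had a Pearson correlation of -0.22 and a Spearman correlation of -0.20, and 43.1% had the same sign; genes are not independent replicates, and no sample is shared. At an unadjusted p under 0.05 the genotypes had 7 genes in common, 2.42% of the 289 in Clk-Jrk and 2.44% of the 287 in w1118. The sign was the same for 4 of them: Sirup (-0.70 in Clk-Jrk and -0.54 in w1118), CG15021 (-0.83 and -0.72), Cdc7 (0.41 and 0.33) and per (-0.39 and -0.67).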

How the data were processed

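RNA was poly(A)-selected and sequenced, per the labels' protocols. The authors deposited estimated counts per gene, made with kallisto 0.46.2 per the submitters' processing notes, and TPM per gene; the deposited TPM values are scaled for transcript length within each library. No source used here names the genome or transcriptome build. Of 13969 genes, 13950 were matched to a symbol and to a position in BDGP6.54. Columns with no replicate number were taken as sampling 1.

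Estimated counts were rounded and tested with edgeR 4.0.16 (quasi-likelihood test, TMM scaling, filterByExpr by genotype and phase, sampling as a block), day minus night, with Benjamini-Hochberg adjustment over all genes tested and a threshold of 0.05. The SE is the log2 difference divided by the square root of F. The genotypes' difference is the interaction in a fit of 24 libraries with a block in each genotype. Alternatives used DESeq2 1.42.0, limma 3.58.1 (pseudocount 1), RLE scaling, other filters and left-out libraries and times, in R 4.3.3; the steps were tested on simulated data. Figures used Python 3.11.15 and matplotlib 3.10.9. Log2 CPM used a prior count of 2 and, for printed levels, TMM over the 24 Clk-Jrk and w1118 libraries.

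The comparison and the gene lists were chosen with earlier results of these data known. The text names the core clock genes, the 5 smallest p in each direction, up to 2 smallest p in each list and the 10 smallest p for the genotypes' difference; genes beyond these were named after their values were seen. No pair of the 12 Clk-Jrk columns was identical. Deviations of libraries with the same sampling number had a median correlation of 0.12 (18 pairs, -0.55 to 0.70), against -0.04 for different numbers, so the numbers were used as a block because the design asked for it and not as proof of pairing.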

Additional observations from a re-analysis of the deposited data

Results flagged for a closer look

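Within the 6 day or the 6 night libraries of Clk-Jrk, 25 of 190 groups of values had a library far from the others by Dixon's criterion, where chance at 1 in 20 gives 9.5. Values are log2 CPM unless a unit is given.

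The ZT 6 library of sampling 2 stood apart by day in 7 of them. It was high for Mtk (6.50), PGRP-SB1 (7.36), CG34054 (3.75) and the spermatheca markers (4899 TPM), and low for CG42704 (-0.78), CG42705 (-2.89) and mRpL16 (3.68).

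The ZT 22 library of sampling 2 stood apart by night in 9. It was high for Got2 (10.35), RFeSP (7.67), Rpi (7.19), RpL35A (9.38), Rpt3 (7.48), scu (8.03) and the photoreceptor markers (41.8 TPM), and low for mt:ND2 (0.022) and mt:ND4L (-2.89).

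The ZT 10 library of sampling 2 held 1157 TPM of gut markers and 4048 TPM of muscle markers, and the ZT 10 library of sampling 1 was low for COX8 (5.35) and high for dco (6.36). The ZT 22 library of sampling 1 held 303 TPM of gut markers, and the ZT 2 library of sampling 2 held 38.5 TPM of photoreceptor markers. The ZT 14 library of sampling 2 was high for CG10469 (2.62) and low for Hsp60A (8.11) among the night libraries. CG42705 at ZT 18 in sampling 1 (-2.32) was the 1 night library with any count of that gene.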

How the results depend on the processing

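The count of genes called between day and night in Clk-Jrk was 0 under 26 of 33 alternatives. It was 26 with DESeq2, 2 with no filter on low counts, 2 with sampling 1 alone, 6 without ZT 6, 1 without ZT 14 and 2 with the 6 times as a factor, an alternative chosen after seeing the data, as were the cosine, the ovary covariate and leaving out the gut-marker and low-mitochondrial libraries. Leaving out each library or sampling gave 0 to 7 calls. In w1118 the count was 0 under 16 of 17 alternatives and 1 (Orp8) with every 2 h included; for the genotypes' difference it was 0 under 26 of 28, 3 with DESeq2 and 1 (Uro) without ZT 14. With no replicate block, each of the 3 comparisons again had 0 calls, with 277, 239 and 317 genes at an unadjusted p under 0.05. The list medians of ribosomal proteins ran from -0.04 to -0.39 and those of oxidative phosphorylation from -0.08 to -0.41.

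Of 82 named genes, 59 had the same sign under all 29 settings; 83 of 2359 values had the opposite sign, and 0 of these passed; the causes were not tested. With no replicate block sgg was at -0.014. With RLE scaling vri was at -0.011. With DESeq2 vri was at -0.012. With limma Pdp1 was at 0.066, cry at 0.017 and cyc at 0.034. Without ZT 2 Pdp1 was at 0.0079. Without ZT 6 cwo was at -0.049, sgg at -0.11, vri at -0.13 and MsrA at -0.076. Without ZT 10 CkIIalpha was at -0.043, cry at 0.063, dco at -0.069, nmo at -0.080 and GstD2 at -0.21. Without ZT 14 Pdp1 was at 0.26 and sr at 0.012. Without ZT 18 vri was at -0.070, crc at -0.0014, MsrA at -0.034 and phr6-4 at 0.050. Without ZT 22 CkIIalpha was at -0.028, CkIIbeta at -0.027, Clk at -0.011, cry at 0.077, cwo at -0.13, cyc at 0.041, dco at -0.077, nmo at -0.15, sgg at -0.24 and vri at -0.18. With the ovary covariate vri was at -0.012. Without the gut-marker and low-mitochondrial libraries CkIIalpha was at -0.023, cry at 0.085, cwo at -0.018, cyc at 0.057, dco at -0.034, nmo at -0.061, sgg at -0.12 and vri at -0.064. With a library or sampling left out, the ranges were -0.050 to 0.16 for CkIIalpha, -0.096 to 0.39 for CkIIbeta, -0.030 to 0.50 for Clk, -0.12 to 0.054 for cry, -0.18 to 0.34 for cwo, -0.16 to 0.065 for cyc, -0.0025 to 1.56 for Cyp6g2, -0.078 to 0.17 for dco, -0.58 to 0.090 for eIF6, -0.014 to 0.55 for Lsd-2, -0.36 to 0.56 for MsrA, -1.34 to 0.33 for mt:ND2, -0.034 to 0.38 for nmo, -0.68 to 0.52 for Pdp1, -0.43 to 0.50 for sgg, -0.78 to 0.020 for sr, -1.02 to 0.30 for tim, -1.09 to 0.13 for TotM, -0.018 to 0.26 for Ugt49C1 and -0.21 to 0.24 for vri.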
